A study of Mus musculus with 2 samples.

Results

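The regions described here are the Gata1 peaks that lay between protein-coding genes but not far from them. They were chosen by position alone: the midpoint had to lie outside every protein-coding gene, over 1 kb from either end of any gene, coding or noncoding, and at most 50 kb from the nearest protein-coding gene. Of 4133 peaks on the autosomes, X and Y, 860 met this rule (20.8%, 95% Wilson interval 19.6 to 22.1%). The others lay within 1 kb of a gene end (1076), deeper inside a protein-coding gene (1873), or beyond 50 kb of one (324). A peak of this kind may still lie inside a noncoding gene, and 148 did.

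The peaks came from 1 ChIP-seq library of mouse embryonic stem cells that had formed embryoid bodies and been driven towards blood for 5 days. Cells positive for both a Runx1-ires-GFP and a Gata1::mCherry reporter were sorted, and nuclei from several sorts were pooled, a population the series calls primitive erythroid. The series also lists 1 control library from the same cells, titled as input chromatin, whose antibody field names rabbit IgG and whose processed data were not analysed here. There was no replicate, and a deposited peak has a position and a fixed width of 400 bp but no height or score, so each site is reported as called or not called. The list holds no expression values, so the sorted population could not be checked against its markers, and the share of cells with Gata1 at a site was not measured. A gene without a peak is one where none was called at an unstated threshold.

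Gata1 is a zinc finger transcription factor needed for red cell and megakaryocyte development. It recognises DNA with the letters GATA at its core, works in complexes with FOG-1, Tal1, Lmo2 and Ldb1, and can activate or repress. Many of its known regulatory elements, such as the locus control region of the beta-globin genes and the upstream elements of Gata2 where Gata1 takes the place of Gata2, lie between genes. Which gene such an element serves cannot be read from distance, so the nearest gene named below is a position, not a target.

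For 3 of the peaks a reference sequence could be read, because a RefSeq start window (250 bases before to 50 after a gene start, build GRCm38.p6, the same assembly as mm10) covers part of the interval. In each case it belongs to a start inside a noncoding gene. The sequences are shown because they are the stretches under these intergenic peaks that the tables hold. Capitals mark every match on either strand to AGATAA and to the same hexamer with T as its first letter, G as its last letter, or both, the surroundings of GATA that Gata1 is known to prefer, and each line runs 5′ to 3′ on the strand given.
Gm33017 window, chr5:36721057-36721352, plus strand, 24.5 kb from D5Ertd579e: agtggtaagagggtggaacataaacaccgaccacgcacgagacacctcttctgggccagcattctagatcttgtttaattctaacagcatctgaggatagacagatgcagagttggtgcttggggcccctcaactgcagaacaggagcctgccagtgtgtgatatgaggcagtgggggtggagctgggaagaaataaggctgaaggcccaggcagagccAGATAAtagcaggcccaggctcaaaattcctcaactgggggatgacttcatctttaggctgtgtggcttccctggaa
Gm36062 window, chr7:135398013-135398267, minus strand, 12.3 kb from Foxi2: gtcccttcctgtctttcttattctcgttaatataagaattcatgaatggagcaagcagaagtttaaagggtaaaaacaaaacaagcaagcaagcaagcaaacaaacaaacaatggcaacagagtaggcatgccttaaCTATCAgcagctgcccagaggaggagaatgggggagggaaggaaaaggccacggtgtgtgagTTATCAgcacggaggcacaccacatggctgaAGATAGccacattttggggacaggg
Gm34322 window, chr9:61443728-61444015, plus strand, 25.4 kb from Tle3: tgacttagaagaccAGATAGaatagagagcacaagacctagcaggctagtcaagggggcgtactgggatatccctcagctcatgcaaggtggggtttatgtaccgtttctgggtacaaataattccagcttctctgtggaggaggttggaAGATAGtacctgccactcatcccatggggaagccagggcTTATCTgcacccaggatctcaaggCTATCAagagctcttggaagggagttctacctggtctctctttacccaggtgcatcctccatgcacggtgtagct
The 3 stretches held 1, 3 and 4 matches. The match closest to the peak midpoint lay 22 bp above it in the first, 1 bp below it in the second and 8 bp below it in the third. Of 32851 RefSeq start windows of 300 bases, 9778 (29.8%) hold at least 1 match, so a match alone is common. A match is a description of the letters and not a site.

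A pair of the intergenic peaks lay upstream of the cluster of miR-144 and miR-451a on chromosome 11, the microRNA locus that red cells are known to express strongly. The peaks, at chr11:78065910-78066309 and chr11:78069639-78070038, were 6.90 and 3.17 kb below Mir144, which is transcribed from the plus strand. Their nearest protein-coding genes were Flot2 at 5.67 kb and Eral1 at 3.54 kb, so a list of nearest coding genes would miss this locus. The mature sequences are shown with the seed, bases 2 to 8, in capitals, since the seed largely sets which messages a microRNA pairs with.
mmu-miR-144-3p: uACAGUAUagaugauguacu
mmu-miR-144-5p: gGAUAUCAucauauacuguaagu
mmu-miR-451a: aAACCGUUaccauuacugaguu
mmu-miR-451b: uGGGAGCAgcaagagaaccgu
The 4 seeds differ from each other. A further peak, at chr11:87751620-87752019, lay 5.04 kb below Mir142, the locus of a microRNA known from blood cells of most lineages.
mmu-miR-142a-3p: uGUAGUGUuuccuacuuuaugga
mmu-miR-142a-5p: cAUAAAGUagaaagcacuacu
In all, 22 of 1228 miRNA genes (1.79%) had one of these intergenic peaks within 10 kb, among them Mir203 (1.55 kb), Mir7-1 (4.62 kb) and Mir365-2 (9.98 kb).

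The intergenic peaks were denser close to genes than farther away. Their median distance to the nearest protein-coding gene was 10.8 kb, with quartiles at 4.09 and 23.7 kb, and 417 of 860 (48.5%) lay within 10 kb. Counted per Mb of the sequence that met the rule, 2.92 peaks per Mb lay at 1 to 2 kb from a gene (88 peaks, 95% exact Poisson interval 2.34 to 3.59) and 2.24 at 2 to 5 kb (1.92 to 2.60). The density was 1.57 at 5 to 10 kb (1.34 to 1.84), 1.24 at 10 to 20 kb (1.06 to 1.44) and 1.15 at 20 to 50 kb (1.02 to 1.30). The density was lower in each farther band; the intervals of neighbouring bands overlap except for 2 to 5 kb against 5 to 10 kb, and the trend was not tested.

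**Figure D1:**
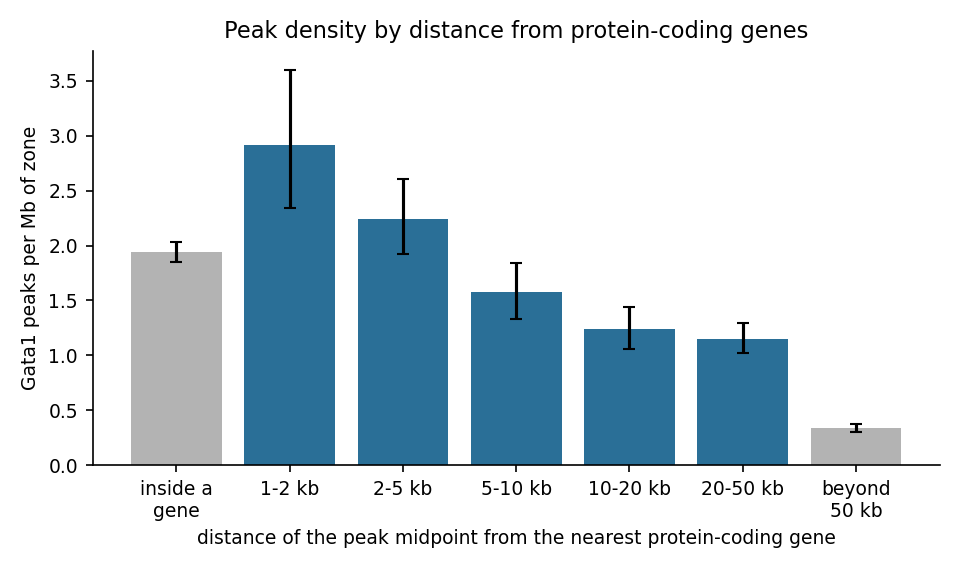
Gata1 peaks per Mb of eligible sequence (vertical axis, linear) by distance of the peak midpoint from the nearest protein-coding gene, with 95% exact Poisson intervals. Blue bars are the intergenic peaks within 50 kb, from 2.92 per Mb at 1 to 2 kb down to 1.15 at 20 to 50 kb, and grey bars are peaks over 1 kb inside protein-coding genes (1.94) and beyond 50 kb (0.337).

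Over the whole zone the density was 1.48 peaks per Mb (1.38 to 1.58, 860 peaks in 581 Mb), against 0.337 beyond 50 kb (0.301 to 0.376, 321 peaks in 952 Mb). The density within 50 kb was 4.39 times that beyond it. Since this distance is what chose the peaks, the ratio is given as a description, with no test. Inside protein-coding genes, over 1 kb from gene ends, the density was 1.94 peaks per Mb (1.85 to 2.03). These intervals treat peaks as independent, which close neighbours may not be, and assembly gaps were not masked.

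The rule drew its bounds through a continuous spread of distances. The peaks kept closest to a gene end lay 1002 bp from Scaf8, 1.01 kb from Emc9 and 1.02 kb from a noncoding gene end near Gpatch2l. Peaks left out as within 1 kb of a gene end lay 991 bp from a noncoding gene end near Zfp518a and 1000 bp from Ndrg3. At the upper bound, peaks at 49.8 kb from Frem1, 49.8 kb from Lao1 and 49984 bp from Elp3 were kept. Peaks at 50.6 kb from Trabd2b, 50.6 kb from Ahctf1 and 50.8 kb from Myc were not.

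Inside noncoding genes, mostly long noncoding RNAs (lncRNAs, 140 of the 148 peaks), the density was 2.07 peaks per Mb (1.75 to 2.43), against 1.40 (1.30 to 1.504) in the rest of the zone, a ratio of 1.48 that was not tested. Among them were both peaks upstream of Gata2, inside the lncRNA gene Gm38708. The lncRNA gene Gata6os held both peaks below Gata6, and Hdnr held 1 of the peaks near Hand2. Sox2ot held the peak nearest to Sox2, 6.44 kb away, and Scarletltr held 1 of the peaks nearest to Lctl.

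The position relative to transcription could be read for 666 members whose nearest gene has a start in the RefSeq table. Of these, 368 (55.3%, Wilson interval 51.5 to 59.0%) lay on the upstream side of the gene and 298 on the downstream side (two-sided exact binomial test against an even split, p = 0.00746). The upstream sides also made up more of the sequence, 53.8%, and against that share the excess did not pass (exact binomial test, p = 0.484). Per Mb, 1.48 peaks lay on upstream sides (1.34 to 1.64) and 1.40 on downstream sides (1.25 to 1.57). By the arrangement of the flanking genes, densities were 1.56 between divergent genes (1.33 to 1.82), 1.56 between convergent genes (1.28 to 1.88) and 1.35 between genes in the same orientation (1.20 to 1.51), with overlapping intervals. Many sites had a choice of genes: 524 of 860 (60.9%) had at least 2 protein-coding genes within 50 kb. For 555 of the 666 (83.3%), the nearest gene start in that table belonged to the nearest gene. The table is not complete, and a gene without a start in it could not be counted as nearer, so this share may be too high.

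The 860 peaks had 766 nearest protein-coding genes, 3.52% of 21779, of which 686 were nearest to 1 peak, 68 to 2, 10 to 3 and 2 to 4. Counting the gene body and 1 kb on either side, a peak was also called for 163 of the 766 (21.3%, 18.5 to 24.3%), against 11.3% of all protein-coding genes, a difference that was not tested. The other 603 had no peak there. The 5 blood lists held blood transcription factors, globins, haem and iron genes, red cell membrane genes, and growth factor signalling genes. They were not confined to red cells. On them, 23 of 140 genes (16.4%, 11.2 to 23.4%) were the nearest gene of an intergenic peak, beside the 3.52% of all genes. These 23 genes had 34 such peaks, and 12 of the 23 had no peak in the gene or within 1 kb. Of all 140 listed genes, 72 (51.4%) had a peak there, beside the 11.3% of all protein-coding genes. The listed genes thus stood above the background for peaks in or at the gene as well. The lists were chosen with earlier results on these peaks known, and no list was tested.

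**Figure D2:**
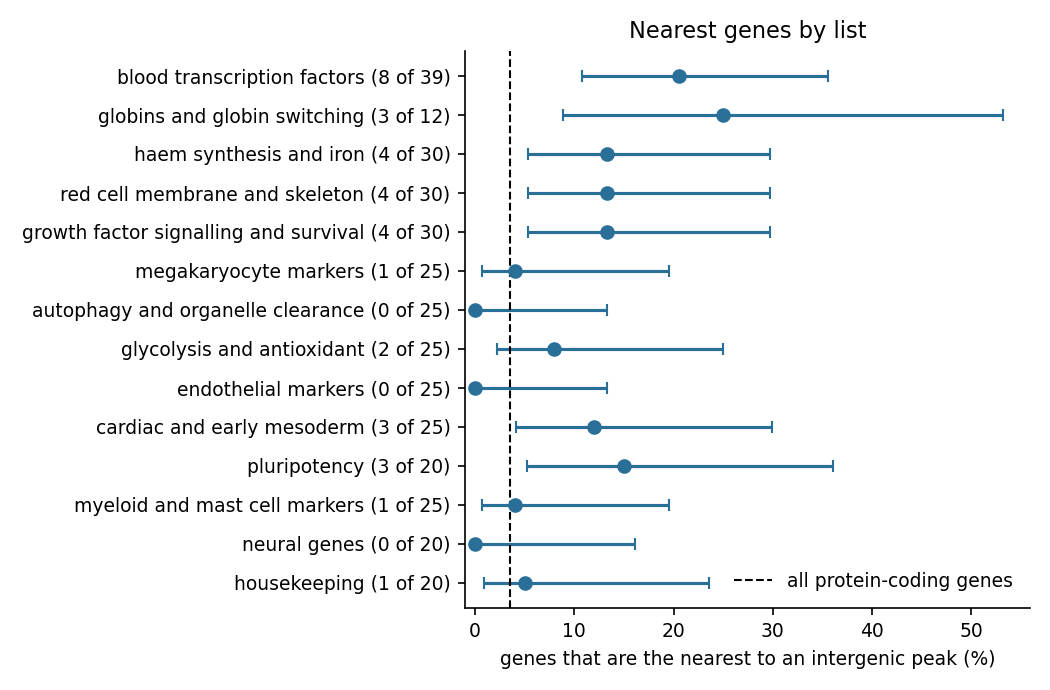
Share of each gene list (horizontal axis, percent) that is the nearest protein-coding gene of at least 1 intergenic peak within 50 kb, with 95% Wilson intervals. The dashed line is the share of all protein-coding genes, 3.52%. The 5 blood lists at the top run from 13.3 to 25%. The pluripotency list (15%) and the cardiac and early mesoderm list (12%) also have intervals above the line. No gene of the autophagy, endothelial or neural lists was a nearest gene.

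Blood transcription factors had 8 of 39 genes (20.5%, 10.8 to 35.5%) as nearest gene of 12 intergenic peaks. Gfi1b, which encodes a zinc finger repressor needed for red cells and megakaryocytes, had 3, at 4.75, 7.11 and 11.3 kb beyond the downstream end of the gene, and no peak in the gene. They lay in a row at chr2:28604497-28604896, chr2:28602141-28602540 and chr2:28597999-28598398. All 3 Gfi1b sites were therefore on the downstream side, 17.3 to 23.8 kb from its start.

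Gata2, the GATA factor of blood progenitors that is known to be shut off as Gata1 rises, had a pair of peaks upstream, 3.15 and 4.05 kb before its start, at chr6:88190539-88190938 and chr6:88189641-88190040. Only 0.898 kb separated them. The gene also carried 2 peaks within it or within 1 kb, and further intergenic peaks lay 19.6 and 47.2 kb downstream, nearest to Dnajb8 and Eefsec. Fli1, an ETS factor of megakaryocytes, had a similar close pair at chr9:32555284-32555683 and chr9:32556209-32556608, 12.1 and 13.0 kb above the gene and 0.925 kb apart. The gene itself held 2 more.

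Each of the remaining blood factors had 1 intergenic peak. Myb, encoding a factor of proliferating progenitors, had its peak 35.8 kb upstream, at chr10:21196557-21196956, and none in the gene. Tcf3, which encodes the E proteins that pair with Tal1, had one 19.8 kb upstream, and Cbfa2t3, encoding the corepressor ETO2, had one 21.2 kb upstream. Meis1, a stem cell homeobox gene, had a peak 5.12 kb beyond its downstream end, with no other peak for 1159 kb, and Zbtb16 had one 1.43 kb below the gene. The distances of the peaks nearest to these blood factors ran from 1.43 kb (Zbtb16) to 35.8 kb (Myb). Tal1, the bHLH partner of Gata1, was not a nearest gene. A peak 24.1 kb downstream of it, at chr4:115095668-115096067, was nearer to Pdzk1ip1 (1.97 kb). In the same way, a peak 31.9 kb upstream of E2f2, a cell cycle factor of late red cells, was nearest to Id3, and the peak 49.2 kb below Spi1 was nearest to Gm13777.

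Of 12 globin and globin switching genes, 3 were nearest genes (25%, 8.89 to 53.2%), and 10 had an intergenic peak within 50 kb, against 8.02% of all protein-coding genes. These are 9 globin genes and Nprl3, which lie in a pair of clusters and share 5 peaks, so they are not independent. At the beta-globin cluster, peaks lay 6.08, 17.6 and 24.1 kb upstream of the embryonic gene Hbb-y, at chr7:103859084-103859483, chr7:103870633-103871032 and chr7:103877099-103877498, the side on which the locus control region is known to lie. By distance the last pair belonged to the olfactory receptor gene Olfr66, at 10.5 and 4.01 kb. A single peak on the other flank, at chr7:103808961-103809360, was 3.36 kb from the adult gene Hbb-bt, on its downstream side. No peak was called inside the gene or within 1 kb for Hbb-y or Hbb-bt. At the alpha-globin cluster the 1 member was at chr11:32268927-32269326, 1.42 kb upstream of Nprl3 and 7.47 kb upstream of Hba-x, the embryonic zeta-globin gene. Peaks of other classes lay there too: 3 inside Nprl3 and another 0.177 kb from Hba-x.

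Haem synthesis and iron genes had 4 of 30 as nearest genes (13.3%, 5.31 to 29.7%). Fech, encoding ferrochelatase, which puts iron into haem, had a peak 2.37 kb above the gene, and Snx3, a sorting nexin that recycles the transferrin receptor, had one 2.44 kb downstream. Both also had a peak in the gene or within 1 kb. Abcb10, a mitochondrial transporter needed for haem synthesis in red cells, had 3 peaks upstream, at 5.72, 7.49 and 11.5 kb, and none in the gene. They formed a run of 3 in the gap to Taf5l, to which the last pair was nearer (5.70 and 1.73 kb). Pcbp1, an iron chaperone, had 1 peak 14.5 kb downstream.

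Red cell membrane and skeleton genes also had 4 of 30 (13.3%). Rhag, encoding the Rh-associated glycoprotein, had a pair 3.71 and 4.23 kb upstream of its start, at chr17:40807195-40807594 and chr17:40806672-40807071. Their midpoints were 0.523 kb apart, and positions cannot tell whether they are 1 site or 2. Add2, encoding the red cell beta-adducin, had peaks 5.67 and 17.1 kb downstream, both inside the pseudogene Gm19596. Slc2a1, the glucose transporter gene GLUT1, had 1 peak 31.5 kb upstream. None of these 3 genes had a peak in the gene or within 1 kb, whereas Epb41, encoding protein 4.1, had 1 there besides its intergenic peak 1.60 kb upstream. Trim58, a ubiquitin ligase gene of late red cells, had a peak 22.1 kb upstream that was nearer to 2210407C18Rik.

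Growth factor signalling and survival genes had 4 of 30 (13.3%), with 9 peaks. Btg2, which encodes an antiproliferative protein, was 1 of the 2 genes with the most intergenic peaks. Its 4 were 7.89 and 13.8 kb upstream and 1.60 and 3.14 kb beyond the downstream end, on both flanks of a gene of 4.29 kb that held 1 further peak. Smad6, encoding an inhibitor of BMP signalling, had 3, at 23.3 kb upstream and at 24.0 and 33.6 kb downstream, and no peak in the gene. Another, 48.9 kb upstream, was nearer to Lctl. Pim1, a survival kinase gene, and Bmp4 had 1 each, 45.5 and 44.8 kb upstream. Cdkn1a, the p21 cell cycle inhibitor gene, had peaks 40.7 and 46.1 kb upstream, which lay 6.86 and 1.52 kb from Srsf3.

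Among the 9 other lists, shares ran from 0 to 15%, and 7 of the 9 Wilson intervals included the background of 3.52%. Those of the cardiac and early mesoderm list and of the pluripotency list lay above it. The megakaryocyte list had 1 of 25 (Cd9, 33.8 kb), and the myeloid and mast cell list had 1 of 25 (Cebpe, 4.41 kb). The glycolysis and antioxidant list had 2 of 25. These were Bpgm, the enzyme that makes the red cell regulator of oxygen release, with a peak at 12.8 kb, and Gclm, at 24.1 kb. The cardiac and early mesoderm list had 3 of 25 (12%, 4.17 to 30.0%): Gata6 with peaks 1.07 and 6.97 kb below the gene, Hand2 with peaks 4.17 and 19.7 kb downstream, and Isl1 with 1 at 4.22 kb. The pluripotency list had 3 of 20 (15%, 5.24 to 36.0%): Sox2 at 6.44 kb, Dppa4 at 30.7 kb and Tfcp2l1 at 42.2 kb. The housekeeping list had 1 of 20, Eef1a1, with peaks at 1.72 and 24.9 kb. The autophagy (0 of 25), endothelial (0 of 25) and neural (0 of 20) lists had none, which allows shares of up to 13.3, 13.3 and 16.1% by the Wilson limit.

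The genes with the most intergenic peaks included several outside the lists. Sfi1, a centrosome gene, tied with Btg2 at 4, all of them in 1 run at the low end of the chromosome 11 assembly, where read mapping was not tested. With 3 each, besides Gfi1b and Smad6, were Rasgef1c, Cited4, Laptm5, Gadd45g, Podxl, Rreb1, Ndfip1 and Lctl. Of these 12 genes, 9 had no peak in the gene or within 1 kb, a share near that of all nearest genes (603 of 766). The exceptions were Btg2, Gadd45g and Rreb1. A pair of the Rasgef1c peaks had midpoints 0.551 kb apart, and a pair of the Sfi1 peaks 0.584 kb apart. As at Rhag, positions cannot tell whether such a pair is a single site. Gadd45g, a stress and growth arrest gene of 1.80 kb, had a peak 4.79 kb upstream and others 33.2 and 43.5 kb downstream. Cited4, encoding a partner of the coactivators CBP and p300, had a peak 16.6 kb upstream and others 1.88 and 7.12 kb downstream. Laptm5, a lysosomal membrane protein gene of blood cells, had all 3 upstream, at 3.18, 16.3 and 20.9 kb. Those of Rreb1, a zinc finger factor gene, were also all upstream, at 18.2, 28.4 and 35.6 kb. Podxl, encoding the sialomucin podocalyxin, had them at 4.98, 35.8 and 49.1 kb above the gene, and Ndfip1, an adaptor of ubiquitin ligases, at 18.2, 29.8 and 47.0 kb above it. The arrangement therefore varied: both flanks at Btg2, Smad6, Gadd45g and Cited4, and 1 flank at the others.

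**Figure D3:**
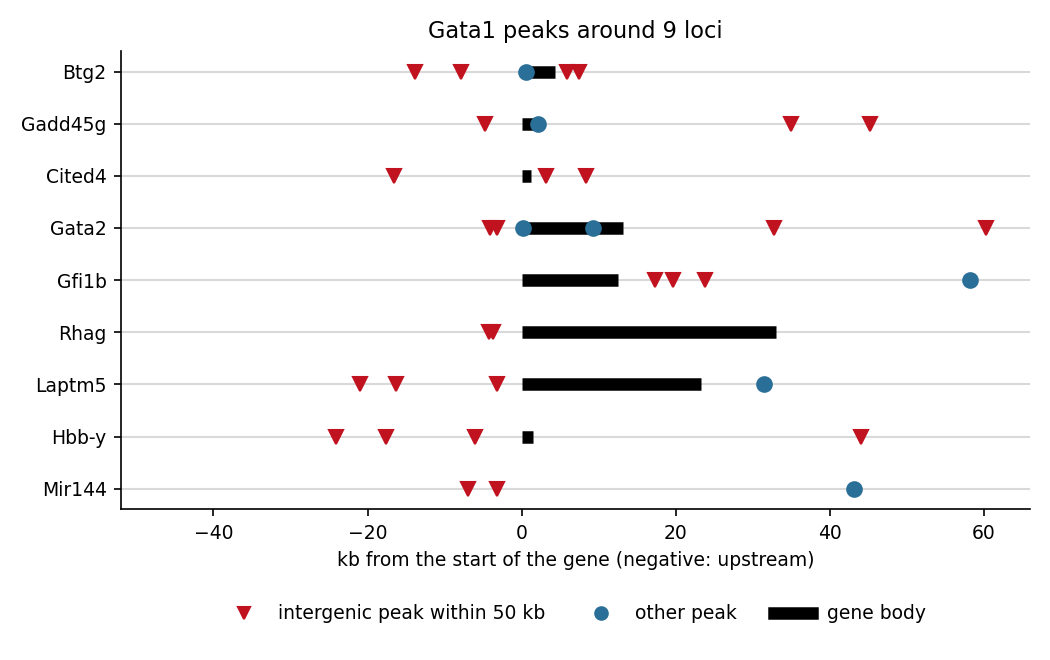
Positions of Gata1 peak midpoints around 9 loci, in kb from the start of the gene in its direction of transcription (negative is upstream). Red triangles are intergenic peaks within 50 kb of a protein-coding gene, blue circles are other peaks and black bars are gene bodies; the Gfi1b peaks sit 17.3 to 23.8 kb after the start, and the Rhag and Mir144 pairs sit before it.

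Another peak lay within 10 kb of 154 of the 860 (17.9%, 15.5 to 20.6%). The share was 16.4% (14.8 to 18.1%) for peaks deep inside genes, a difference of 1.52 percentage points (two-sided Fisher's exact test, adjusted p = 0.323 over 2 comparisons). Beyond 50 kb it was 12.7% (9.47 to 16.7%), and the difference of 5.25 points did not pass after adjustment (Fisher's exact test, p = 0.0346, adjusted p = 0.0693). That comparison passed with wider windows, at 20 kb (27.4 against 17.3%, adjusted p = 0.000546) and at 50 kb (46.9 against 25.6%, adjusted p = 3.43e-11, both Fisher's exact test). By the rule, a peak beyond 50 kb cannot have a peak inside a protein-coding gene within any of these windows, whereas a member can. The distance that chose the members therefore partly sets this comparison, and no conclusion is drawn from its tests. Peaks are the units of these tests and 1 library supplied them all.

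**Figure D4:**
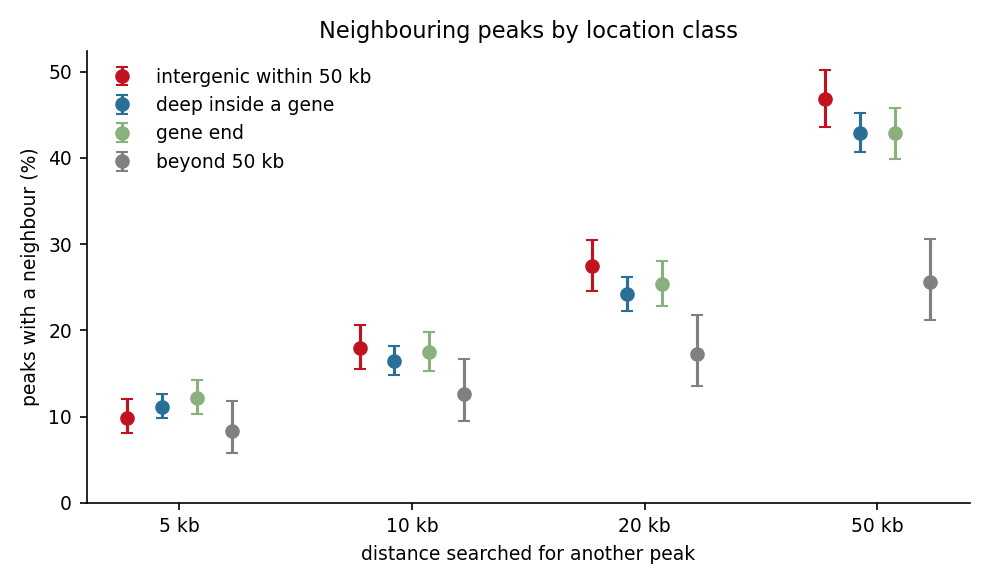
Share of peaks (vertical axis, percent) with another peak within 5, 10, 20 or 50 kb, by location class, with 95% Wilson intervals. Intergenic peaks within 50 kb (red) reach 46.9% at 50 kb, close to peaks deep inside genes (42.9%) and at gene ends (42.8%) and above those beyond 50 kb (25.6%).

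Of these 154, the nearest other peak was itself intergenic within 50 kb for 112, at a gene end for 29, inside a gene for 12 and beyond 50 kb for 1. Joined only to each other at 10 kb, the 860 peaks fell into 45 runs of 2, 6 of 3 and 1 of 4. The other 748 had no other member within that distance, though some had a peak of another class there. The run of 4 lay near Sfi1 at the low end of the chromosome 11 assembly, at chr11:3100325-3100724, chr11:3101857-3102256, chr11:3103781-3104180 and chr11:3104365-3104764, 27.3 to 31.3 kb below the gene. The runs of 3 lay at Gfi1b, at Rasgef1c (1.65, 6.28 and 6.83 kb downstream), between Abcb10 and Taf5l, between Fbxo16 and Zfp395, between Tacc3 and Fgfr3, and near Lctl (32.3, 38.6 and 46.2 kb upstream). Tacc3 encodes a mitotic spindle protein and Fgfr3 a growth factor receptor, and their 3 peaks were 9.76, 16.0 and 25.5 kb downstream of Tacc3. Of the 860, 18 had a neighbour within 1 kb.

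Across chromosomes, the autosomes together had 1.65 intergenic peaks per Mb of zone (1.54 to 1.76), from 1.20 on chromosome 13 to 2.72 on chromosome 11. The X had 0.208 (0.0951 to 0.395) and the Y 0.0879. The 9 peaks on the X were nearest to Tfe3 (3.83 kb), Was (12.1 kb), Slc38a5 (7.81 kb), Bcor (42.5 kb), Gpc4 (12.3 kb), Phf6 (27.3 kb), Yipf6 (9.41 kb), Nlgn3 (5.00 kb) and Mid1 (3.81 kb). Was encodes the Wiskott-Aldrich protein of blood cells, Bcor a corepressor of Bcl6 and Slc38a5 an amino acid transporter. The intergenic share of all X peaks, 21.4%, was close to the 20.8% of all nuclear peaks. The Y had 2, near LOC665918 and Gm52481. Read mapping was not tested for the Mid1 peak, near the upper end of the X, or for the Y peaks.

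**Figure D5:**
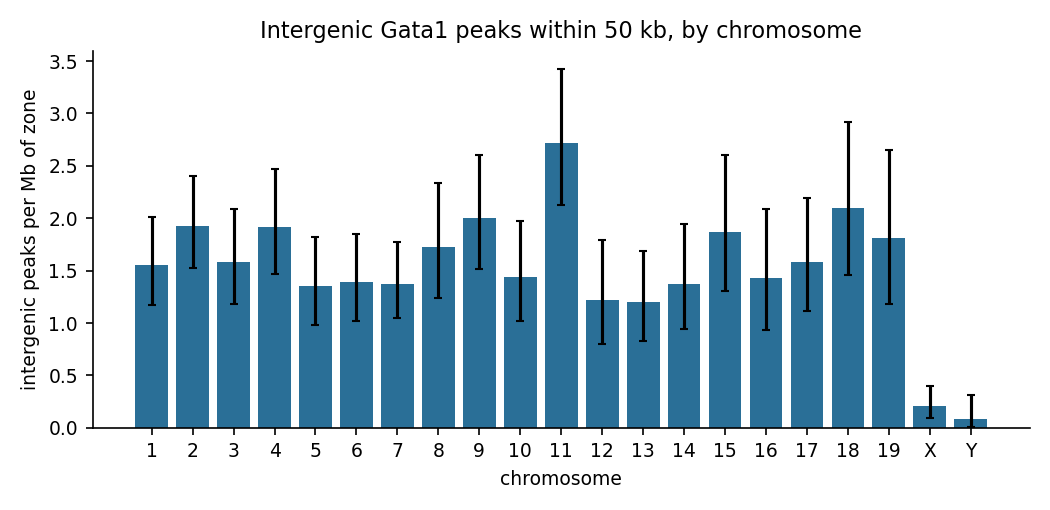
Intergenic Gata1 peaks within 50 kb per Mb of eligible sequence (vertical axis) for each chromosome, with 95% exact Poisson intervals. Chromosome 11 is highest at 2.72 and the X and Y are lowest at 0.208 and 0.0879.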

How the data were processed

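The authors deposited 1 list of peak positions for the Gata1 library: 3 columns (chromosome, start, end), no header and no other value. Per the submitters' processing notes, Bowtie2 2.0.6 and MACS2 2.0.10 were used with build mm10; the settings, the threshold and how the control entered were not given in the sources used here. Per the labels' protocols, chromatin was fixed with 1% formaldehyde and 7 µg of antibody was used. Read depth is unknown, and intervals cover counting error only.

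Gene positions came from RefSeq GRCm38.p6, without 340 autosome or X entries starting below 3 Mb, which left 49603 genes, 21779 of them protein-coding. Strands and start windows came from a RefSeq table that is not complete and holds none for chromosome 18. Midpoints decided the class. Zone lengths were summed base by base. Zones beyond 50 kb covered the annotated span of each chromosome, which left out 3 peaks. Of 348 distinct listed genes on 14 lists, 347 matched; Ahsp did not. Members and lists were chosen with earlier results of these data known. Named were blood-list genes nearest to a member (at most 8 a list), at most 3 from each other list, the 10 genes with the most members, runs of at least 3, peaks at the bounds and on the X and Y; other names were chosen after their values were seen. One peak at a bound is not reported here. The planned motif comparison between peak classes needs a genome and was not run. The planned test of density within against beyond 50 kb is not reported, since that distance chose the members. Neighbour, zone and class functions were tested on simulated data. Python 3.11.15, numpy 2.4.6, scipy 1.17.1 and pandas 2.3.3 were used.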

Additional observations from a re-analysis of the deposited data

How the results depend on the processing

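The number of intergenic peaks stayed within 1.5 times of 860 under 8 of 9 alternatives, from 664 with gene ends at 2.5 kb to 1012 with an upper distance of 100 kb. It moved to 442 with gene ends at 5 kb, which leaves less sequence by construction. The density ratio to the zone beyond 50 kb stayed between 4.22 and 4.88 over 4 alternatives, as a description with no test. The difference in neighbours from peaks deep inside genes reversed to -1.27 points with a window of 5 kb and missed the threshold under all 5 alternatives. The difference from peaks beyond 50 kb passed with windows of 20 kb (10.2 points) and 50 kb (21.2 points) and with gene ends at 2.5 kb (6.59 points, Fisher's exact test, adjusted p = 0.0215); its adjusted p ranged from 3.43e-11 to 0.438. The rule partly sets this difference, since a peak beyond 50 kb cannot have a peak inside a protein-coding gene within these windows. Any other cause was not tested. The upstream share missed the threshold for members within 10 kb of the gene (53.5%, exact binomial test, p = 0.227), between genes in the same orientation (51.0%, p = 0.771) and against the zone length, an alternative chosen after seeing the data (55.3%, p = 0.484). Counting any gene within 50 kb of a member raised the share of the 5 blood lists to 26.4%, beside 8.02% of all genes. Of 42 alternative values for single lists, 39 stayed within the Wilson interval of the value reported. Motif alternatives were not run. No paired analysis was possible because there was 1 ChIP library. Without scores or depth, a stricter threshold could not be examined.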
